A study of Homo sapiens with 9 samples.

Results

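The 59 genes described here encode the machinery that copies chromosomal DNA and the enzymes that supply it with deoxynucleotides. They were chosen by name, with earlier results of these data known, from the 59050 genes counted by RNA sequencing in MEC1. MEC1 is an established cell line derived from chronic lymphocytic leukemia (CLL), a leukemia of mature B lymphocytes. All 59 passed the filter on low counts, a CPM (read count scaled to library size) above 1 in at least 3 libraries, as did 13463 genes in all. MEC1 cells were grown either in conventional 2D culture, for which no time is given, or inside a hydrogel that was bioprinted as a 3D scaffold and sampled after 7 days (3D_7d) or 14 days (3D_14d), with 3 libraries in each group. The comparisons ask how the transcriptome of the leukemic cells differed between 2D and 3D culture and between the early and late scaffold cultures. No drug, transgene or gene deletion distinguishes the groups in the labels, and all groups come from a single cell line. The sample titles of all groups carry the designation MECPGK, which the labels do not explain. RNA of the scaffolds was isolated with TRIzol, treated in solution with DNase I and extracted again on a column, while that of 2D cells was extracted once, on the same kind of column, so that culture and extraction cannot be told apart in any comparison with 2D, whereas day 14 and day 7 shared the same extraction. It is not stated whether the 3 libraries of a group came from separate cultures, so the p-values measure the spread between these libraries, which may be technical.

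Replication starts when the origin recognition complex, with CDC6 and CDT1, loads the ring-shaped MCM helicase onto DNA during the gap phase that follows cell division. The kinase CDC7 with its activator DBF4, together with MCM10, CDC45 and the GINS complex, then turns the loaded ring into an active helicase, and DNA is primed by polymerase alpha, elongated by polymerases delta and epsilon on the clamp PCNA, and joined by FEN1 and LIG1. Deoxynucleotides come mainly from ribonucleotide reductase, built from RRM1 and RRM2, and from thymidylate made by TYMS or salvaged by TK1. Many of these genes are known targets of the E2F transcription factors, which act before and during DNA synthesis, whereas genes of chromosome segregation are expressed later in the cycle. In bulk RNA, a smaller share of cells in DNA synthesis and a lower amount of these transcripts per cell cannot be told apart.

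The libraries held between 54662799 and 85968686 counts. Of the B-cell identity genes, which check the labelled cell type, 11 of 12 were detected above the filter, and their summed level spanned 3684 to 3738 CPM in 2D, 4120.2 to 4846 CPM in 3D_7d and 4982 to 5643 CPM in 3D_14d. None of 9 monocyte and macrophage markers passed the filter, their summed level was between 0.417 and 1.56 CPM in every library, and CD14 or CSF1R was the highest of them. The T and NK cell list had 5 of 14 genes above the filter and was led by the perforin gene PRF1, with a summed level of 1062 to 1167 CPM in 2D, 1256 to 1323 CPM at day 7 and 1442 to 1973 CPM at day 14, while CD3D, a defining T cell gene, was at 0 in every 2D and day 14 library and at most 0.0379 CPM at day 7. Of its 5 tested genes, TRAC (group means in the same order, 332, 472 and 649 CPM) and KLRD1 (0.551, 2.30 and 4.69 CPM) were called higher than 2D at both times and PRF1 at day 14, whereas CD7 was lower at both times and NKG7 at day 7. The stromal and endothelial list had 3 of 9 and summed to 23.6 to 27.2, 38.1 to 55.2 and 54.8 to 79.996 CPM, and was led by PECAM1, the 1 gene of the 3 that was called higher than 2D, whose mean was 13.8 CPM in 2D, 42.2 CPM at day 7 and 64.3 CPM at day 14, while COL1A1 (6.93, 3.003 and 3.20 CPM) and PDGFRB (3.67, 0.458 and 2.11 CPM) were called lower than 2D at day 7. The share of counts in mitochondrial genes was 2.30% to 2.83% in 2D, 1.44% to 1.64% at day 7 and 1.62% to 2.82% at day 14. The part of these differences in the results was not tested. Of the day 14 libraries, 3D_14d replicate 1 stood farthest from its own group, at a mean Euclidean distance of 93.0 on log2 CPM over all tested genes against 82.3 and 78.8 for replicates 2 and 3.

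At day 7, replication genes went in both directions relative to 2D, and at day 14 nearly all were lower. Against 2D, 18 of the 59 genes were higher at day 7 (30.5%, where 22.2% of all tested genes were higher) and 11 were lower (18.6%, against 21.2% of all tested genes), with a median log2 fold change of 0.11 beside -0.0039 over all genes tested. The share of higher genes was thus somewhat above the background and the share of lower genes close to it. At day 14, 49 of 59 were lower than in 2D (83.1%, against 17.2% of all tested genes), and the median was -1.16 beside 0.02 over all genes. None was higher at day 14 (0 of 59, against 19.0% of all tested genes) by edgeR's quasi-likelihood test at a Benjamini-Hochberg adjusted p of at most 0.05, which is the test behind every call and adjusted p given here, and the count was also 0 at an unadjusted p under 0.05 and by DESeq2. Between the scaffold time points, which shared the extraction, 50 of 59 were lower at day 14 than at day 7 (84.7%, against 13.6%), 1 was higher (against 14.5%), and the median was -1.11 beside -0.0012 over all genes. The day 14 and day 7 comparisons with 2D use the same 3 control libraries.

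The count of genes higher at day 7 depended on the libraries used. It was 8, 10 and 11 without 2D replicates 1, 2 and 3 in turn and 11 without 3D_7d replicate 2 or replicate 3. The counts without a 2D library are 13.6%, 16.9% and 18.6% of the 59, beside 15.5%, 15.6% and 16.2% of all genes tested in those fits, and without either 3D_7d library 18.6% beside 16.6% and 16.5%, so the share of higher genes was near or below that of all genes in those fits. It was further above that of all genes in others, with 42.4% beside 29.05% when the fit held only the 6 libraries compared, 40.7% beside 27.02% without 3D_14d replicate 1, 28.8% beside 14.9% with edgeR's own expression filter and 22.03% beside 5.02% with no filter on low counts, and both of these settings also admitted many genes of low counts. Scaling by total counts alone shifted the median of all tested genes to -0.16 at day 7 and -0.18 at day 14. It then gave 10 replication genes higher at day 7 (16.9%, beside 16.02% of all tested genes), with a median of -0.05 over the 59. With the same scaling 12 were lower at day 7, a share below the 26.6% of all tested genes. Among all called genes, the share that was higher went with this scaling from 51.1% to 37.6% for day 7 and from 52.5% to 33.1% for day 14.

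**Figure D1:**
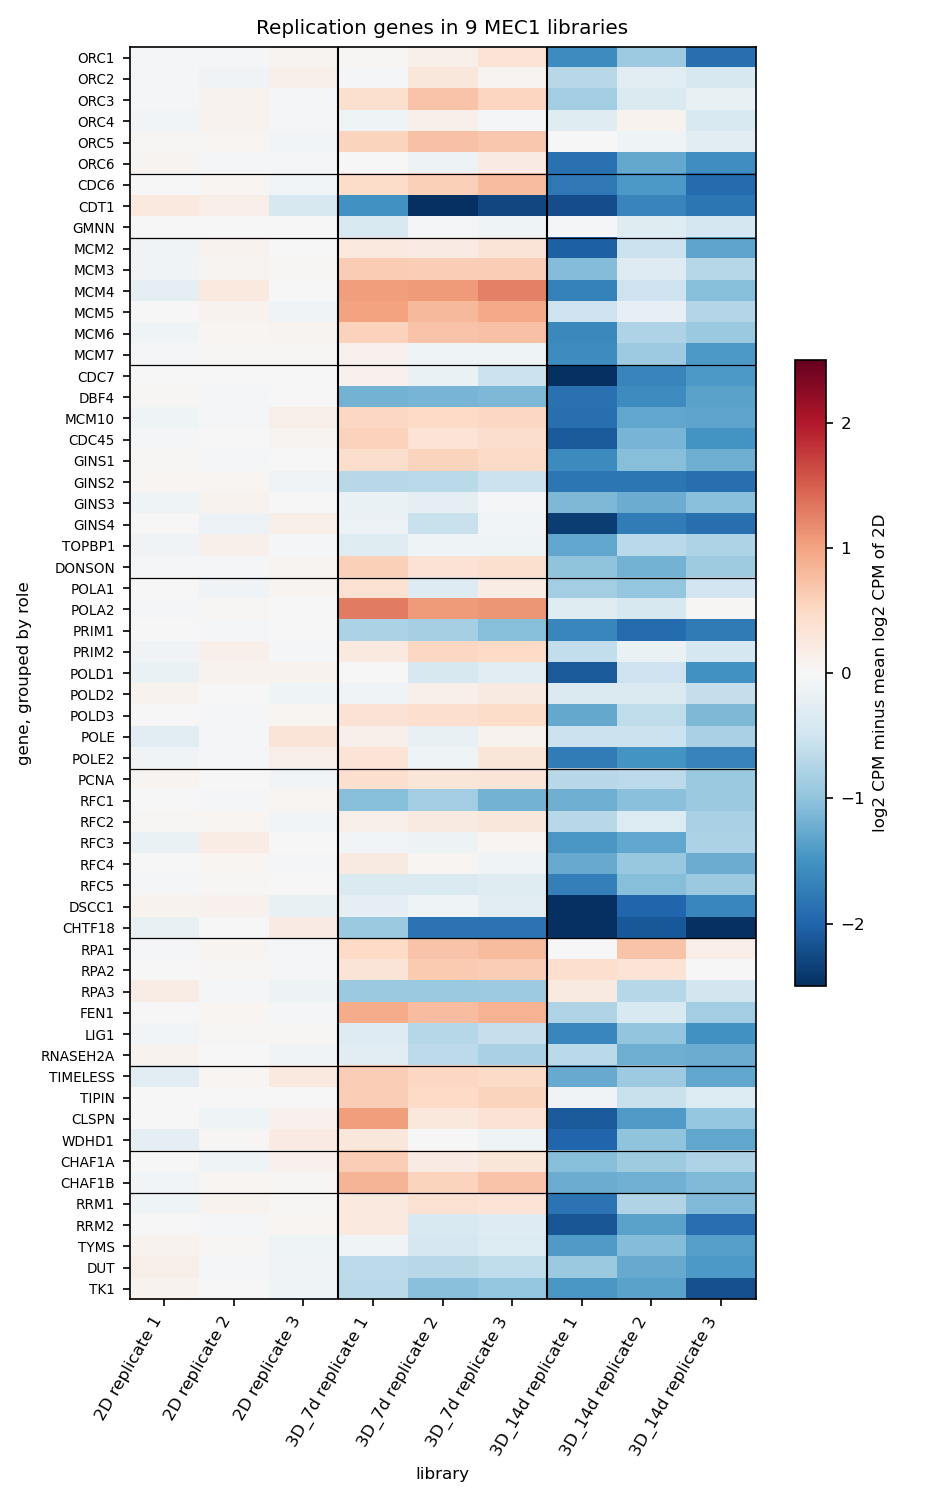
Level of each of the 59 replication genes (rows, grouped by role) in each of the 9 libraries (columns), as log2 CPM minus the mean log2 CPM of the 3 libraries in 2D; values beyond the ends of the colour scale take its end colours. The 3 libraries at day 7 hold red and blue genes side by side, whereas those at day 14 are blue for all but a few genes such as RPA1 and RPA2.

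In each library the median replication gene could be set against its 2D mean. That median lay between -0.02 and 0.02 on the log2 scale in 2D, between 0.13 and 0.22 at day 7, and at -1.29, -0.94 and -1.10 in replicates 1, 2 and 3 of day 14. All day 14 libraries therefore lay below all others, and they also differed most among themselves. The median SD between replicates was 0.08 for the 59 genes in 2D, 0.15 at day 7 and 0.27 at day 14, on the log2 scale, and over all tested genes it was 0.14, 0.19 and 0.34. Within day 14, replicate 1 held the lowest value for 35 of the 59 genes and replicate 2 the highest value for 35. Without 3D_14d replicate 1 the median at day 14 was -1.03 and 51 genes were lower than in 2D.

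The genes fell into few combinations of calls. The largest group, 27 genes, was not called at day 7 and was lower at day 14 than in 2D and than at day 7. A further 12 were higher than 2D at day 7 and lower than 2D at day 14, namely CDC6, MCM3, MCM4, MCM5, MCM6, MCM10, GINS1, DONSON, PCNA, FEN1, TIMELESS and CHAF1B, and each of them also differed between the time points themselves. In contrast, 10 genes were lower than 2D at both times, 6 were higher at day 7 and not called at day 14, and RPA3 was lower at day 7 and not called at day 14. The 3 genes called in neither comparison with 2D were ORC4, GMNN and PRIM2. How many of all tested genes showed each combination was not counted. The counts of combinations therefore do not show which were more frequent among replication genes than among all genes. Against 2D, 22.2% of all tested genes were higher and 21.2% lower at day 7. At day 14 these shares were 19.0% and 17.2%. Of the 12 genes called in opposite directions, 4 (CDC6, MCM4, FEN1 and CHAF1B) kept both calls in each of the 17 other ways of processing the data or leaving out a library, and 11 kept the day 14 call in all of them, the exception being MCM5. These do not include a threshold of 1 on the size of the log2 fold change, which among the 12 MCM4 alone passed in both comparisons.

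**Figure D2:**
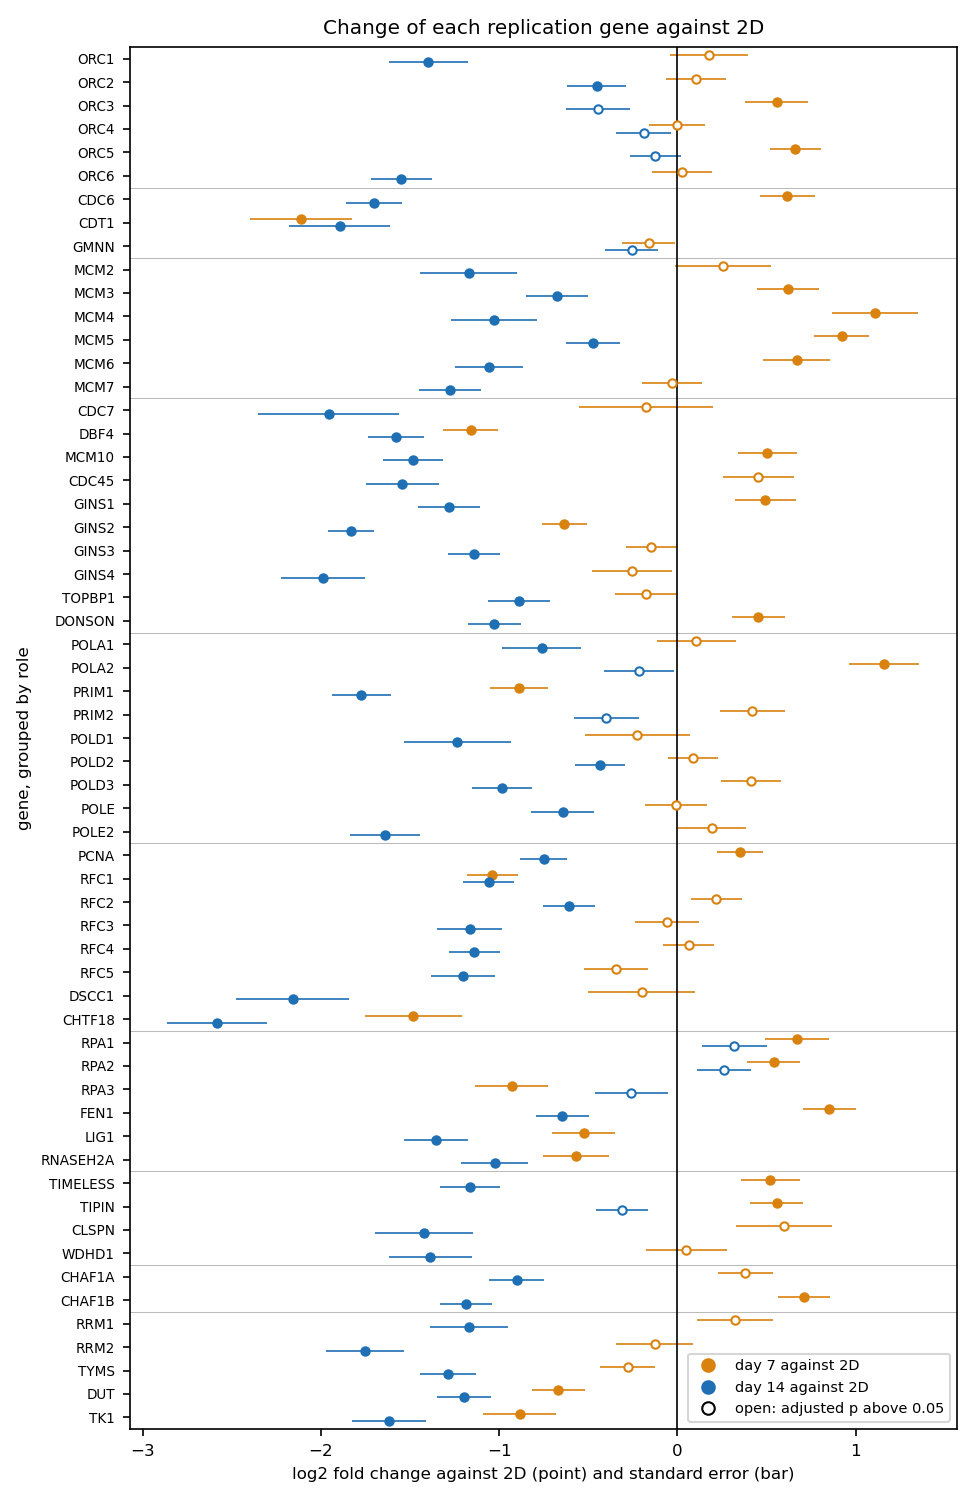
Log2 fold change against 2D (points) with its standard error (bars) for each replication gene, grouped by role, at day 7 (orange) and day 14 (blue); filled points passed an adjusted p of 0.05 and open points did not. Orange points spread on both sides of 0, from -2.11 for CDT1 to 1.16 for POLA2, and 57 of 59 blue points lie below 0.

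Promoter sequences were available from RefSeq (GRCh38.p14) for 51 of the 59 genes, as windows of 250 bases before to 50 bases after the start. They were searched on both strands for the E2F site written as TTTCCCGC, TTTGGCGC, TTTCGCGC or TTTGCCGC, and for CCAAT, and overlapping matches counted once per promoter. An E2F word was present in 20 of 51 windows (39.2%), compared with 3.31% of 35116 promoters of the same length, and CCAAT in 28 of 51 (54.9%), compared with 34.6%. By call at day 7, it was in 7 of 14 genes that were higher, 10 of 27 not called and 3 of 10 lower, and by call at day 14 in 18 of 43 lower and 2 of 8 not called. The 35116 promoters were not selected by expression or base composition, and a match is a description of these letters only. The stretches below, from genes named for their values and printed in their own direction from 5′ to 3′, show the E2F word in capitals and 20 bases on each side, for genes that moved in different ways at day 7: PCNA and POLA2 were higher, and GINS2 and CDT1 were lower. MCM6, higher at day 7, was added after its values were seen because its promoter holds 4 matches that overlap in pairs.
GINS2, chr16:85688958-85689005, minus strand: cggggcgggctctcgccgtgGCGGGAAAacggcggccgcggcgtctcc
CDT1, chr16:88803734-88803781, plus strand: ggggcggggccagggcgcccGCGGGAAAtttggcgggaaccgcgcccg
PCNA, chr20:5126654-5126701, minus strand: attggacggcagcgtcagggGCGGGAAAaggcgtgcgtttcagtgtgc
POLA2, chr11:65261889-65261936, plus strand: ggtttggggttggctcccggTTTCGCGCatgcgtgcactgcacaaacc
MCM6, chr2:135876502-135876615, minus strand: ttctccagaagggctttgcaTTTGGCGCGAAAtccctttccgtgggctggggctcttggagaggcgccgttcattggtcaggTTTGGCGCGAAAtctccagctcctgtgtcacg
The GINS2 stretch ends 4 bases before the start, that of CDT1 8 bases, that of PCNA 32 bases, that of POLA2 26 bases and that of MCM6 59 bases before it. GINS2, CDT1 and PCNA carry the same word, TTTCCCGC on the reverse strand. At day 7 PCNA was called higher, a call kept in 5 of 17 alternatives, and GINS2 and CDT1 were lower. All of them were lower than 2D at day 14. Whether the word bears on these directions was not tested.

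The origin recognition complex marks replication origins. Of ORC1 to ORC6, 2 were higher at day 7 (ORC3 and ORC5, where 22.2% of all tested genes were higher), 3 were lower at day 14 (ORC1, ORC2 and ORC6, against 17.2%), and 5 were lower at day 14 than at day 7 (against 13.6%). ORC6, the smallest subunit, was at 63.4, 59.05 and 59.5 CPM in 2D, 60.002, 55.6 and 69.6 CPM at day 7 and 16.5, 25.1 and 20.6 CPM at day 14. The 2D and day 7 libraries overlapped and all day 14 libraries lay far below them, with a log2 fold change of -1.55 ± 0.17 (SE) against 2D (edgeR adjusted p = 4.83e-05). ORC5, a core subunit of the complex, was at 31.2, 31.9 and 29.3 CPM in 2D, 45.5, 51.2 and 49.4 CPM at day 7 and 30.8, 28.7 and 25.3 CPM at day 14. ORC5 was thus called higher at day 7, by 0.66 ± 0.14 (edgeR adjusted p = 0.00267), and its day 14 libraries overlapped those in 2D, with a log2 fold change of -0.12 ± 0.14 (edgeR adjusted p = 0.526). ORC1, which is known to be made and degraded with the cell cycle, differed by -1.40 ± 0.22 at day 14, and the stable subunit ORC4 by -0.19 ± 0.16, the latter not called (edgeR adjusted p = 0.368). In TPM, which scales counts to gene length as well as library size, the ratio of ORC1 to ORC2 was between 1.87 and 1.96 in 2D, between 1.77 and 2.31 at day 7 and between 0.684 and 1.26 at day 14.

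The licensing factors CDC6 and CDT1, which together load the helicase, went in opposite directions at day 7. CDC6 (chr17:40287879-40304657 on GRCh38, plus strand) was at 77.5, 79.04 and 73.4 CPM in 2D, 106, 116 and 131 CPM at day 7 and 22.3, 28.2 and 20.1 CPM at day 14. Each day 7 library lay above each 2D library and each day 14 library below them, with log2 fold changes of 0.62 ± 0.15 at day 7 (edgeR adjusted p = 0.00647) and -1.70 ± 0.16 at day 14 (edgeR adjusted p = 1.67e-05). The change from day 7 to day 14, -2.32 ± 0.16 (edgeR adjusted p = 9.77e-06), was the most negative of the 59 genes. CDT1 (chr16:88803789-88809258, plus strand) was at 136, 129 and 87.8 CPM in 2D, 40.5, 17.5 and 23.8 CPM at day 7 and 24.997, 36.9 and 33.2 CPM at day 14. Both sets of scaffold libraries lay below 2D and overlapped each other, with log2 fold changes of -2.11 ± 0.29 at day 7 (edgeR adjusted p = 0.000122) and -1.89 ± 0.28 at day 14 (edgeR adjusted p = 0.00034). GMNN, the inhibitor that binds CDT1 after origins have fired, was not called in any comparison and had log2 fold changes of -0.16 ± 0.15 and -0.26 ± 0.15. The TPM ratio of CDT1 to GMNN was between 0.471 and 0.718 in 2D, between 0.0948 and 0.280 at day 7 and between 0.137 and 0.243 at day 14.

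Of the 6 subunits of the MCM helicase ring, 4 were higher than 2D at day 7 (where 22.2% of all tested genes were) and all 6 were lower at day 14 (where 17.2% were). MCM4 was at 161, 225 and 190.2 CPM in 2D, 391, 396 and 456 CPM at day 7 and 58.7, 133 and 91.01 CPM at day 14. No library of one group overlapped another, and the log2 fold changes were 1.11 ± 0.24 at day 7 (edgeR adjusted p = 0.00279), -1.03 ± 0.24 at day 14 (edgeR adjusted p = 0.00548) and -2.14 ± 0.25 between the time points (edgeR adjusted p = 0.00018). MCM5 (chr22:35400137-35425431, plus strand) was at 362, 388 and 342 CPM in 2D, 726, 639 and 703 CPM at day 7 and 253, 316 and 218 CPM at day 14. It was 1.89-fold higher than 2D at day 7, a log2 fold change of 0.92 ± 0.15 (edgeR adjusted p = 0.000512), while the decrease at day 14, -0.47 ± 0.15 (edgeR adjusted p = 0.0289), was the smallest in the ring, and its adjusted p ranged from 0.00285 to 0.086 over the alternatives. MCM6 was at 104, 115 and 117 CPM in 2D, 166, 183 and 185 CPM at day 7 and 36.5, 65.8 and 58.9 CPM at day 14. MCM3 was at 308, 343 and 337 CPM in 2D, 511, 505 and 501 CPM at day 7 and 155, 264 and 199.9 CPM at day 14. Both genes had separate groups at each time, and at day 7 their log2 fold changes were 0.67 ± 0.19 (edgeR adjusted p = 0.0122, alternatives 0.000131 to 0.0652) and 0.62 ± 0.17 (edgeR adjusted p = 0.0121, alternatives 0.000102 to 0.0637). The remaining subunits, MCM2 and MCM7, were not called at day 7, with 0.26 ± 0.27 and -0.03 ± 0.17, and were lower at day 14, with -1.17 ± 0.27 and -1.28 ± 0.17. Expressed per transcript length, MCM7 was the most abundant subunit in 2D at 567 ± 39.2 TPM (SD, n = 3) and MCM6 the least at 72.3 ± 7.53 TPM, and the ratio of the highest to the lowest subunit was 7.64 to 8.19 in 2D, 4.41 to 5.73 at day 7 and 5.51 to 8.14 at day 14.

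All 10 genes of origin firing and helicase assembly were lower at day 14 than in 2D, where 17.2% of all tested genes were. At day 7, 3 were higher and 2 lower, shares near those of all tested genes (22.2% and 21.2%). DBF4 (chr7:87876493-87909553, plus strand), the activating subunit of the CDC7 kinase, was at 86.02, 82.2 and 85.3 CPM in 2D, 37.3, 37.5 and 38.7 CPM at day 7 and 23.2, 28.4 and 33.3 CPM at day 14. DBF4 was already below every 2D library at day 7, with a log2 fold change of -1.16 ± 0.15 (edgeR adjusted p = 0.000106), and at day 14 the difference was -1.58 ± 0.15 (edgeR adjusted p = 2.13e-05). The kinase subunit CDC7 was not called at day 7, with -0.18 ± 0.38, and was lower at day 14, with -1.96 ± 0.39. Its level in 3D_14d replicate 1 was 2.20 CPM against 8.44 and 9.81 CPM in the other two libraries. GINS2 (chr16:85676198-85688954, minus strand), a subunit of the GINS complex, was at 132, 131 and 120.3 CPM in 2D, 78.7, 80.3 and 87.9 CPM at day 7 and 36.7, 36.6 and 34.5 CPM at day 14. Its groups formed descending steps without overlap, with -0.63 ± 0.13 at day 7 (edgeR adjusted p = 0.00151) and -1.83 ± 0.13 at day 14 (edgeR adjusted p = 3.59e-06). GINS1, another subunit, was at 18.9, 17.9 and 18.5 CPM in 2D, 24.99, 27.3 and 25.6 CPM at day 7 and 6.10, 8.76 and 7.89 CPM at day 14. Within the same complex GINS1 was therefore higher at day 7, by 0.49 ± 0.17 (edgeR adjusted p = 0.0338, alternatives 0.0049 to 0.185), where GINS2 was lower, and GINS3 and GINS4 were not called. MCM10, a factor that helps activate the helicase, was at 69.1, 72.3 and 82.2 CPM in 2D, 106, 105 and 106 CPM at day 7 and 20.05, 30.3 and 29.6 CPM at day 14. DONSON, a scaffold protein for the assembling helicase, was at 32.6, 32.5 and 34.7 CPM in 2D, 50.6, 42.6 and 43.7 CPM at day 7 and 16.4, 14.7 and 17.9 CPM at day 14. The day 7 values of both genes lay above all 2D values, with 0.50 ± 0.17 for MCM10 (edgeR adjusted p = 0.026, alternatives 0.00115 to 0.158) and 0.46 ± 0.15 for DONSON (edgeR adjusted p = 0.0247, alternatives 0.00482 to 0.16). DONSON shares 13.6% of its exonic bases with other genes, of which SON on the opposite strand had the most counts, 7.07 times those of DONSON. Because the library kit does not mark strand, reads of DONSON and SON may be assigned with error. CDC45, the helicase cofactor, and TOPBP1, which recruits it, were not called at day 7 and differed by -1.54 ± 0.20 and -0.89 ± 0.18 at day 14.

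Among the polymerases and primase, 7 of 9 genes were lower at day 14 than in 2D, where 17.2% of all tested genes were. All 9 were lower at day 14 than at day 7 (against 13.6%). At day 7 only POLA2, which was higher (against 22.2%), and PRIM1, which was lower (against 21.2%), were called. POLA2 and PRIM1 are both subunits of the polymerase alpha and primase complex. POLA2 (chr11:65261962-65298685, plus strand), the regulatory subunit, was at 6.43, 6.67 and 6.54 CPM in 2D, 16.1, 13.8 and 14.05 CPM at day 7 and 5.28, 4.95 and 6.71 CPM at day 14. It was higher at day 7 by 1.16 ± 0.20 (edgeR adjusted p = 0.000547), the highest log2 fold change of the 59 genes in that comparison, and its day 14 values overlapped those in 2D. PRIM1, the catalytic primase subunit, was at 29.1, 28.4 and 28.9 CPM in 2D, 16.7, 16.3 and 13.7 CPM at day 7 and 9.22, 7.59 and 8.47 CPM at day 14. PRIM1 descended without overlap between groups, with -0.89 ± 0.16 at day 7 (edgeR adjusted p = 0.000899) and -1.77 ± 0.17 at day 14 (edgeR adjusted p = 1.67e-05). The partner subunits POLA1 and PRIM2 were not called at day 7, with 0.11 ± 0.22 and 0.42 ± 0.18. PRIM1 shares 34.1% of its exonic bases with other genes, of which HSD17B6 on the opposite strand had the most counts, 0.115 times those of PRIM1. POLA2 shares 55.8% with a gene on the same strand whose count was 0.00247 times its own. How reads in shared bases were assigned is not given, so the levels of PRIM1 and POLA2 are uncertain. POLE2, the accessory subunit of polymerase epsilon, was at 12.9, 13.2 and 15.1 CPM in 2D, 17.4, 12.7 and 16.99 CPM at day 7 and 4.06, 4.88 and 4.29 CPM at day 14. Its day 7 and 2D libraries overlapped and its day 14 libraries were all lower, with -1.64 ± 0.20 against 2D (edgeR adjusted p = 8.09e-05), while the catalytic subunit POLE differed by -0.64 ± 0.18. The polymerase delta subunits spanned -1.23 for POLD1, -0.98 for POLD3 and -0.43 for POLD2 at day 14.

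The clamp PCNA and its loaders were all lower at day 14 (8 of 8, where 17.2% of all tested genes were). At day 7 PCNA was higher while RFC1 and CHTF18 were lower. These day 7 counts were near or below the shares of all tested genes (22.2% higher and 21.2% lower). PCNA (chr20:5114953-5126626, minus strand), the ring that holds polymerases on DNA, was at 262, 249 and 239 CPM in 2D, 335, 308 and 314 CPM at day 7 and 156, 159 and 132 CPM at day 14. The groups did not overlap, but the day 7 difference was small, 0.35 ± 0.13 (edgeR adjusted p = 0.0443), and it passed in 5 of 17 alternatives, whose adjusted p ranged from 0.0049 to 0.359. The decrease at day 14 was -0.75 ± 0.13 (edgeR adjusted p = 0.00093). RFC1, the large subunit of the main clamp loader, was at 88.98, 85.7 and 90.9 CPM in 2D, 42.2, 48.5 and 38.8 CPM at day 7 and 38.1, 42.7 and 46.7 CPM at day 14. RFC1 was lower than 2D at both times, with -1.04 ± 0.14 (edgeR adjusted p = 0.000149) and -1.06 ± 0.14 (edgeR adjusted p = 0.000188), and the scaffold groups overlapped each other. The small subunits RFC2 to RFC5 were not called at day 7 and lay between -1.20 (RFC5) and -0.61 (RFC2) at day 14. CHTF18 (chr16:788046-798074, plus strand), a subunit of an alternative clamp loader with roles in sister chromatid cohesion, was at 77.04, 86.6 and 100.3 CPM in 2D, 45.8, 24.3 and 24.5 CPM at day 7 and 11.4, 20.1 and 12.6 CPM at day 14. Its groups did not overlap, and its log2 fold change of -2.58 ± 0.28 at day 14 (edgeR adjusted p = 4.28e-05) was the most negative of the 59 genes in that comparison, after -1.48 ± 0.27 at day 7 (edgeR adjusted p = 0.000891). DSCC1, which belongs to the same loader, was not called at day 7 (-0.20 ± 0.30) and differed by -2.16 ± 0.32 at day 14.

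**Figure D3:**
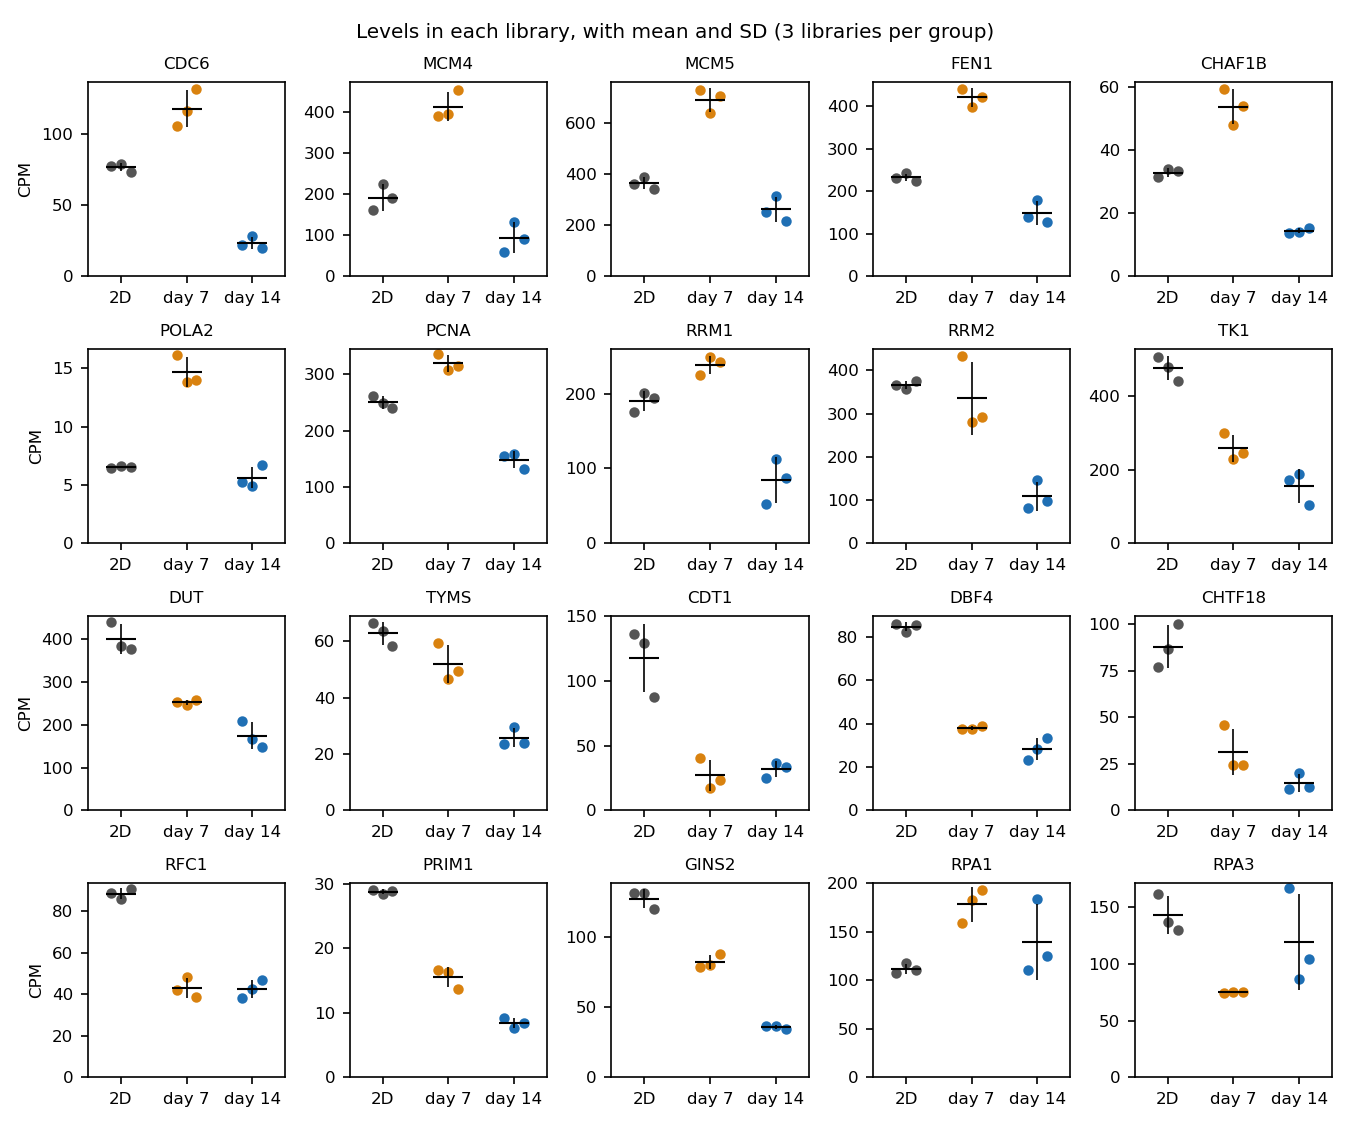
Level in CPM of 20 replication genes in each library (points), with the mean and SD of the 3 libraries per group (horizontal and vertical lines), in 2D (grey), at day 7 (orange) and at day 14 (blue); each axis starts at 0. CDC6, MCM4, MCM5, FEN1 and CHAF1B are highest at day 7 and lowest at day 14, whereas CDT1, DBF4, CHTF18, RFC1, PRIM1, GINS2, TK1 and DUT are already lower at day 7.

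With all libraries, none of the subunits of RPA, the single-strand binding protein, was called at day 14 against 2D. RPA1 and RPA2, its large and middle subunits, singled out after their values were seen, were the 2 genes with a positive log2 fold change at day 14, 0.32 ± 0.18 and 0.26 ± 0.15, neither of them called, after increases of 0.67 ± 0.18 (edgeR adjusted p = 0.00961) and 0.54 ± 0.15 (edgeR adjusted p = 0.0115) at day 7. The small subunit RPA3 (chr7:7636518-7718607, minus strand) was at 162, 137 and 130.3 CPM in 2D, 74.7, 75.2 and 75.5 CPM at day 7 and 167, 87.2 and 104 CPM at day 14. RPA3 was thus below every 2D library at day 7, with -0.93 ± 0.21 (edgeR adjusted p = 0.00314), and was the 1 gene of the 59 that was higher at day 14 than at day 7, by 0.67 ± 0.21 (edgeR adjusted p = 0.0288, alternatives 0.00611 to 0.0844). That difference was 0.37 without 3D_14d replicate 1, the highest of its group, and then did not pass (edgeR adjusted p = 0.0512), and without the same library RPA3 was called lower at day 14 than in 2D, with -0.58 (edgeR adjusted p = 0.00465) in place of -0.26 ± 0.20 (edgeR adjusted p = 0.344, alternatives 0.00465 to 0.787). FEN1 (chr11:61792911-61797238, plus strand), the nuclease that trims Okazaki fragments, was at 232, 242 and 225 CPM in 2D, 441, 398 and 423 CPM at day 7 and 139, 179.9 and 128 CPM at day 14. Each FEN1 group was separate, with 0.85 ± 0.15 at day 7 (edgeR adjusted p = 0.000661) and -0.65 ± 0.15 at day 14 (edgeR adjusted p = 0.00481). LIG1, the ligase that seals the fragments FEN1 trims, and RNASEH2A, which removes RNA from DNA, were lower at both times, with -0.53 ± 0.18 and -1.35 ± 0.18 for LIG1 and -0.57 ± 0.19 and -1.03 ± 0.19 for RNASEH2A.

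Of the fork protection genes, TIMELESS and its partner TIPIN were higher at day 7, where 22.2% of all tested genes were. At day 14, 3 of 4 genes were lower (against 17.2%). TIMELESS was at 55.2, 69.1 and 79.2 CPM in 2D, 103, 95.5 and 93.5 CPM at day 7 and 27.9, 35.9 and 27.1 CPM at day 14. The groups were separate, with 0.52 ± 0.17 at day 7 (edgeR adjusted p = 0.0229, alternatives 0.00512 to 0.146) and -1.16 ± 0.17 at day 14 (edgeR adjusted p = 0.000294). TIPIN differed by 0.56 ± 0.15 at day 7 (edgeR adjusted p = 0.00871) and by -0.31 ± 0.15 at day 14, the latter not called. CLSPN, the adaptor of the replication checkpoint, and WDHD1, which links polymerase alpha to the fork, were not called at day 7 and differed by -1.42 ± 0.28 and -1.39 ± 0.23 at day 14. The chromatin assembly factor places histones behind the fork, and its subunit CHAF1B (chr21:36385392-36419015, plus strand) was at 31.4, 33.9 and 33.4 CPM in 2D, 59.5, 48.2 and 53.996 CPM at day 7 and 13.9, 14.2 and 15.3 CPM at day 14. CHAF1B was higher at day 7 by 0.71 ± 0.14 (edgeR adjusted p = 0.00175) and lower at day 14, with -1.18 ± 0.15 (edgeR adjusted p = 9.64e-05), without overlap. CHAF1A, its partner, was at 0.38 ± 0.16 at day 7, not called, and at -0.90 ± 0.16 at day 14.

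The nucleotide supply enzymes were all lower at day 14 (5 of 5, where 17.2% of all tested genes were). None was higher at day 7, where 22.2% of all tested genes were, which for 5 genes is not far from that share. RRM1, the large subunit of ribonucleotide reductase, was at 176, 201 and 194 CPM in 2D, 225, 248 and 242 CPM at day 7 and 52.97, 113 and 87.9 CPM at day 14. Every day 7 value lay above every 2D value, yet the difference of 0.33 ± 0.21 was not called (edgeR adjusted p = 0.237), and it passed when the fit held only the libraries of that comparison (edgeR adjusted p = 0.0132, alternatives 0.0132 to 0.588) and when 3D_14d replicate 1 was left out (edgeR adjusted p = 0.0383). RRM2, the small subunit, was at 366, 356 and 376 CPM in 2D, 433, 281 and 292 CPM at day 7 and 82.7, 146 and 97.9 CPM at day 14. The RRM2 libraries at day 7 lay on both sides of 2D and those at day 14 all below, with log2 fold changes at day 14 of -1.75 ± 0.22 for RRM2 (edgeR adjusted p = 0.000109) and -1.17 ± 0.22 for RRM1 (edgeR adjusted p = 0.00137). The TPM ratio of RRM2 to RRM1 was 1.40 to 1.65 in 2D, 0.895 to 1.52 at day 7 and 0.879 to 1.23 at day 14. RRM2 to RRM2B, the reductase subunit used outside DNA synthesis, had a ratio of 18.6 to 20.1 in 2D, 10.4 to 19.3 at day 7 and 3.22 to 7.35 at day 14.

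TK1 and DUT, both of the thymidine branch, were already lower than 2D at day 7. TK1, the salvage kinase of proliferating cells, was at 508, 480.5 and 443 CPM in 2D, 299.96, 230.1 and 245 CPM at day 7 and 174, 189.5 and 103 CPM at day 14. DUT, which makes the precursor of thymidylate from dUTP, was at 439.8, 383 and 377 CPM in 2D, 252, 246 and 257 CPM at day 7 and 208, 167 and 147 CPM at day 14. Both genes descended in separate steps, TK1 with -0.89 ± 0.20 at day 7 (edgeR adjusted p = 0.00387) and -1.62 ± 0.21 at day 14 (edgeR adjusted p = 0.000123), and DUT with -0.67 ± 0.15 (edgeR adjusted p = 0.00335) and -1.20 ± 0.15 (edgeR adjusted p = 0.000112). TYMS, which methylates dUMP to thymidylate, was at 66.5, 63.7 and 58.5 CPM in 2D, 59.5, 46.6 and 49.5 CPM at day 7 and 23.6, 29.7 and 24.03 CPM at day 14. Its day 7 and 2D libraries overlapped (-0.28 ± 0.15, edgeR adjusted p = 0.163), and the day 14 libraries were all lower, with -1.29 ± 0.16 (edgeR adjusted p = 9.13e-05). The day 7 difference of TYMS passed with total counts alone (-0.43, edgeR adjusted p = 0.0443) and when the fit held only the libraries of that comparison (-0.30, edgeR adjusted p = 0.038), with adjusted p of 0.038 to 0.519 over the alternatives. TYMS shares 66.5% of its exonic bases with other genes, and ENOSF1 on the opposite strand had 0.319 times its count, so that its level is uncertain. TK1 was the most abundant of the 59 transcripts per length in 2D, at 675 ± 15.999 TPM (SD, n = 3), and was at 325 ± 55.9 TPM at day 7 and 168 ± 46.3 TPM at day 14, while MCM7 at 567 ± 39.2, POLD2 at 544 ± 10.8 and PCNA at 432 ± 3.24 TPM followed it in 2D. The rarest in 2D was POLA2 at 4.48 ± 0.247 TPM, with POLA1 at 5.21 ± 0.456 and GINS4 at 5.58 ± 0.785 TPM next. POLA2 and GINS4 share 55.8% and 23.5% of their exonic bases with other genes, so their levels and ranks are uncertain.

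The mitosis genes, which act after replication in the cycle, were already lower at day 7. Of 39 tested genes of the list, 36 were lower than 2D at day 7 (where 21.2% of all tested genes were) and 38 at day 14 (17.2%), with medians of -1.10 and -1.64, and none was higher in either comparison by edgeR (0 also at an unadjusted p under 0.05 and by DESeq2). Between day 7 and day 14, 17 of 39 were lower (where 13.6% of all tested genes were), PTTG1 was higher (14.5%), and the median was -0.46. CENPF, a kinetochore protein, was at 159, 149 and 173 CPM in 2D, 30.6, 22.7 and 13.7 CPM at day 7 and 15.4, 20.1 and 21.8 CPM at day 14. Against 2D it differed by -2.84 at day 7 (edgeR adjusted p = 8.69e-06), and the time points overlapped. CCNB2, a mitotic cyclin, differed by -1.51 at day 7 (edgeR adjusted p = 1.45e-05) and MAD2L1, a spindle checkpoint protein, by -1.62 at day 14 (edgeR adjusted p = 8.83e-06). The summed TPM of the 59 replication genes was 6535 to 6914 in 2D, 6225 to 6807 at day 7 and 2341 to 3399 at day 14, whereas that of the mitosis genes was 4293 to 4494, 1507 to 2055 and 1262 to 1559. The mitosis sum was therefore lower in every day 7 library than in any 2D library, while the replication sums of these groups overlapped. Within day 7, replicate 1 had the highest sum for both lists.

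**Figure D4:**
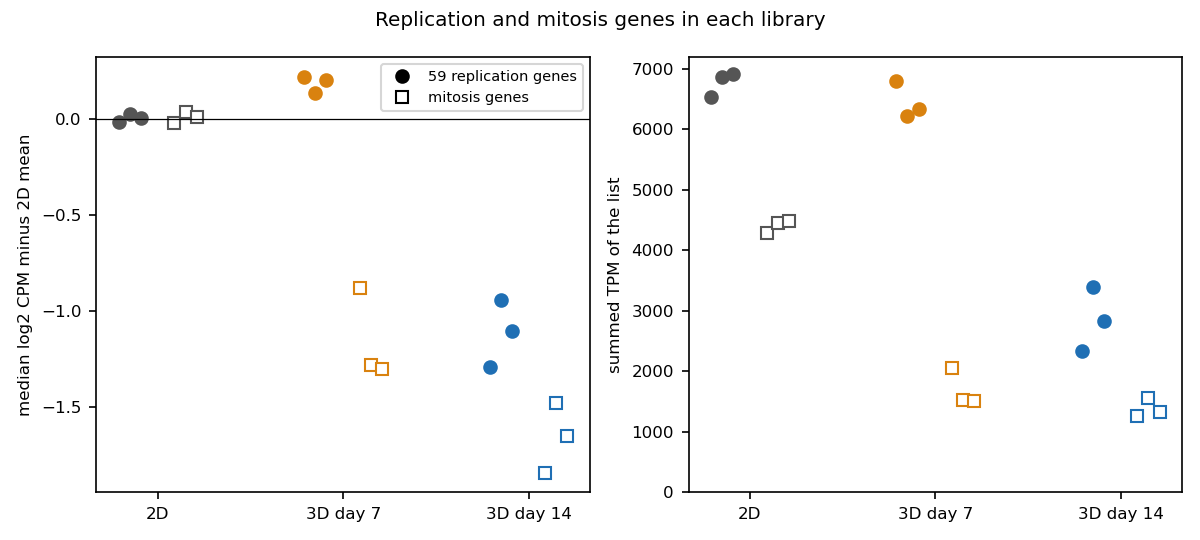
For each library, the median over the list of log2 CPM minus the 2D mean (left) and the summed TPM of the list (right), for the 59 replication genes (filled circles) and the 39 tested mitosis genes (open squares), in 2D (grey), at day 7 (orange) and at day 14 (blue). At day 7 the replication medians lie between 0.13 and 0.22 and the mitosis medians between -1.30 and -0.88.

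Of 27 tested genes in a list of further replication factors, 4 were higher and 8 lower at day 7, where 22.2% and 21.2% of all tested genes were, and 2 were higher and 17 lower at day 14, where 19.0% and 17.2% were, with medians of -0.45 and -1.25. The day 7 counts were thus below the share of all genes for higher and not far above it for lower, and the day 14 count of lower genes was above it. ATAD5, which unloads PCNA, was at 35.8, 38.6 and 50.5 CPM in 2D, 17.1, 12.9 and 10.7 CPM at day 7 and 4.42, 5.14 and 8.36 CPM at day 14, and differed by -1.62 (edgeR adjusted p = 0.000377) and -2.80 (edgeR adjusted p = 1.98e-05). UHRF1, which couples DNA methylation to replication, was at 49.6, 57.8 and 55.01 CPM in 2D, 154, 131 and 142 CPM at day 7 and 21.4, 46.2 and 29.97 CPM at day 14. UHRF1 was thus above all 2D libraries at day 7 and below them at day 14, and fell by 2.13 on the log2 scale between the time points (edgeR adjusted p = 0.000121). The nuclease and helicase DNA2 differed by -1.76 at day 14 (edgeR adjusted p = 2.86e-05) and RNASEH2B, the partner of RNASEH2A, by -0.88 at day 7 (edgeR adjusted p = 0.000199).

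Of 14 further tested genes of nucleotide supply, 3 were higher and 0 lower at day 7 (by DESeq2 1 was lower, and 2 were lower at an unadjusted p under 0.05), and 2 were higher and 2 lower at day 14. These counts were near or below those shares of all tested genes (22.2% higher and 21.2% lower at day 7, 19.0% and 17.2% at day 14). CTPS1, the CTP synthase of proliferating lymphocytes, was at 41.2, 47.2 and 43.96 CPM in 2D, 147, 154 and 145 CPM at day 7 and 30.4, 38.6 and 41.95 CPM at day 14. It was higher at day 7 by 1.75 (edgeR adjusted p = 6.99e-06) and returned to values below all those of day 7. SAMHD1, which degrades deoxynucleotides, was at 17.7, 21.5 and 18.9 CPM in 2D, 52.2, 40.7 and 33.05 CPM at day 7 and 19.5, 21.3 and 22.8 CPM at day 14, a difference of 1.11 at day 7 (edgeR adjusted p = 0.000478). DGUOK, the mitochondrial deoxyguanosine kinase, was higher at day 14 by 0.70 (edgeR adjusted p = 0.0135).

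Of 13 genes of the E2F and RB families, 1 was higher and 1 lower at day 7, and 2 were higher and 4 lower at day 14. At day 7 both counts were below the shares of all tested genes (22.2% and 21.2%), and at day 14 the higher count was near or below its share (19.0%) and the lower count above it (17.2%). E2F2, an activating E2F, was at 21.9, 22.9 and 22.9 CPM in 2D, 31.3, 25.9 and 30.9 CPM at day 7 and 12.9, 8.48 and 10.1 CPM at day 14. RBL1, a pocket protein that is itself expressed in proliferating cells, was at 13.2, 17.5 and 19.5 CPM in 2D, 26.9, 18.3 and 23.4 CPM at day 7 and 4.82, 7.13 and 8.25 CPM at day 14. The day 14 values of both lay below all 2D values, with -1.10 for E2F2 (edgeR adjusted p = 0.000652) and -1.31 for RBL1 (edgeR adjusted p = 0.0012). E2F4, a mainly repressive E2F, was higher at day 7 by 0.75 (edgeR adjusted p = 0.00105), and TFDP2, a dimer partner of E2F proteins, was lower, with -0.52 (edgeR adjusted p = 0.00949).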

How the data were processed

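Libraries were made with the SMART-Seq v4 kit, which does not mark strand, and sequenced as single reads. According to the methods and the submitters' processing notes, reads were trimmed with Trimmomatic 0.39, aligned to GRCh38 with STAR 2.5.3a and assigned to genes with featureCounts 1.6.4; the strand and multi-mapping settings are not given in the sources used here. For the 10 members with a named pseudogene, counts of reads shared with it are uncertain; the pseudogenes held at most 0.909% of their parent's counts. The authors deposited 1 table of raw counts per gene and library, with a gene length for which deposited values equal the merged exons in 59050 of 59050 genes. Samples were grouped by the labels.

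Genes with CPM above 1 in at least 3 libraries were tested with edgeR 4.0.16 (R 4.3.3): TMM factors, 1 quasi-likelihood fit of all 9 libraries, contrasts between the 3 groups, and Benjamini-Hochberg adjustment over 13463 genes, called at an adjusted p of at most 0.05. SE is the absolute log2 fold change over the square root of F. CPM values are TMM-normalised, and TPM was computed from counts and lengths. No test was made over the list as a whole. The exact permutation test of 3 against 3 libraries cannot go below 0.1 and was not used. Members and lists were chosen with earlier results of these data known. The genes described library by library were, per comparison and direction, up to 6 members with the smallest p, every member called in opposite directions, all nucleotide supply genes and PCNA, and the member with the smallest p between the time points in each role; other members are given by their fold changes, and further lists by up to 2 genes per comparison. Alternatives were DESeq2 1.42.0, other scalings and filters, separate fits, a replicate block and leaving out each library. KIF23 of the mitosis list was not analysed here.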

Additional observations from a re-analysis of the deposited data

Results flagged for a closer look

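For 25 of the 28 genes described library by library, the effect against 2D differed between day 14 and day 7, tested directly as the difference of the time points in edgeR's quasi-likelihood test (Benjamini-Hochberg adjusted p at most 0.05). Of all tested genes, 14.5% were higher and 13.6% lower in that comparison, and the 28 genes were named partly for small p in it, so the count follows in part from the choice of genes. These differences are on the log2 scale, day 14 minus day 7. They were -2.32 for CDC6, -2.14 for MCM4, -1.99 for MCM10, -1.90 for CHAF1B, -1.83 for POLE2, -1.77 for GINS1, -1.73 for MCM6, -1.68 for TIMELESS, -1.62 for RRM2, -1.57 for ORC6, -1.50 for FEN1, -1.49 for RRM1 and -1.48 for DONSON. Smaller decreases were -1.39 for MCM5, -1.38 for POLA2, -1.29 for MCM3, -1.20 for GINS2, -1.10 for PCNA, -1.10 for CHTF18, -1.01 for TYMS, -0.89 for PRIM1, -0.79 for ORC5, -0.73 for TK1 and -0.53 for DUT. RPA3 was the 1 gene of the 25 with a positive difference, 0.67. Of these calls, that of DUT was lost with only the 6 libraries compared (-0.51, edgeR adjusted p = 0.0702) and without 3D_7d replicate 2 (0.0674) or replicate 3 (0.0826), and that of TK1 without 3D_7d replicate 1 (-0.61, edgeR adjusted p = 0.0663). RPA3 lost its call with only the 6 libraries compared (edgeR adjusted p = 0.0535), without any 1 of the 3D_7d libraries (0.0758 to 0.0844) and without 3D_14d replicate 1 (0.0512). The causes of these differences were not tested. Groups of 3 libraries are too small for the outlier test.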

How the results depend on the processing

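The 49 genes lower at day 14 than in 2D numbered between 46 and 53 over scalings, filters, DESeq2, separate fits and left-out libraries, and 37 when a log2 difference of 1 or more in size was also required. The count of genes higher at day 7 (18) was 10 with total counts alone, 25 with only the 6 libraries compared, 2 with that size threshold and 8 to 24 with 1 library left out, and the count lower at day 7 (11) was 4 with the size threshold. With that threshold 8.27% of all tested genes were higher and 12.2% lower at day 7, and 8.85% lower at day 14, so that both day 7 counts lay below the shares of all genes. With total counts alone the medians were -0.055 at day 7 and -1.35 at day 14. With 1 library left out the median at day 14 ranged from -1.23 to -1.03, that between the time points from -1.29 to -1.09, the count higher at day 14 from 0 to 1, and the count higher at day 14 than at day 7 from 0 to 1. This last count was also 0 with only the 6 libraries compared and with the size threshold. Of the fold changes of the named genes, 1351 kept direction and call, 61 lost the call, 7 gained it and 9 changed sign, none of the last past the threshold. The sign changes were ORC6 at day 7 (-0.13 with total counts alone, -0.015 with TMM factors computed after removal of ribosomal protein, mitochondrial and immunoglobulin genes, and -0.113 to 0.065 with 1 library left out), RFC1 between the time points (0.0011 with 6 libraries, -0.092 to 0.084 with 1 left out) and CDT1 between the time points (-0.0055 to 0.62 with 1 left out). The causes were not tested.

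Correlations of deviations from the group means between libraries of the same replicate number ranged from -0.10 to 0.19. Libraries of different numbers were not compared in this way, so these values cannot decide whether replicate numbers pair the libraries. With a replicate block, 17 members were higher and 11 lower at day 7, 49 lower at day 14, and 51 lower between the time points, and PCNA lost its call at day 7 (edgeR adjusted p = 0.0521, alternatives 0.0049 to 0.359).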
